A study of Rattus norvegicus with 67 samples.

Results

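The comparison set sperm from atrazine lineage rats whose only recorded abnormality was late puberty beside sperm from atrazine lineage rats without disease. Its members were chosen from the sample labels: 22 of the 67 animals of the series, of which 5 had late puberty (M35, M36, M38, M50 and M51) and 17 had no disease. The measurement was histone H3 chromatin immunoprecipitation followed by sequencing (ChIP-Seq), given as reads in consecutive 1000 bp windows of the rat genome build Rnor_6.0. Regions that differed between the groups are called differential histone retention regions (DHRs).

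During the last steps of sperm formation most histones are removed and replaced by protamines, small basic proteins that pack the DNA tightly. A minority of nucleosomes stays behind, and H3 ChIP-Seq reads mark where they are. Because sperm chromatin is passed to the embryo, the places where histones are retained are studied as a possible carrier of effects across generations. Puberty in male rats starts when gonadotropin releasing hormone neurons drive the pituitary and then the testis to make androgens, and its delay was recorded during development, long before the sperm were collected.

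All animals were F3 generation males of outbred Sprague Dawley rats, examined at 1 year of age, and only their great-grandmothers (the F0 dams) had been dosed. The atrazine lineage descended from dams given the herbicide atrazine at 25 mg/kg by intraperitoneal injection on gestation days 8 to 14, and the control lineage from dams given the vehicle DMSO. Further animals were used to look at the same windows: 4 atrazine lineage animals with multiple disease that included late puberty (M34, M37, M48 and M49), 9 atrazine lineage animals with multiple disease without late puberty, 2 control lineage animals with late puberty (M4 with late puberty, M3 with multiple disease that included it) and 9 control lineage animals without disease. None of these 24 animals entered the late puberty comparison. Beside late puberty, the labels gave prostate disease for M34 and M49 and testis disease for M37 and M48. They also gave kidney disease for M48, lean for M37, M48 and M49, and obese for M3. The multiple disease animals without late puberty had other mixtures, such as kidney disease and lean in M57, M58 and M63. The treatment tag of the labels did not follow the lineage: all 17 control lineage animals were tagged Atrazine, and 4 of the 17 no disease animals were tagged DMSO, against 0 of the 5 late puberty animals. Of the multiple disease animals without late puberty, M57, M58, M61 and M63 were tagged DMSO, while M34, M37, M48 and M49 were all tagged Atrazine. Groups were therefore taken from the lineage and disease labels. The animals with late puberty carry neighbouring numbers (M34 to M38, M48 to M51, and M3 and M4), the labels name no litter, and a shared litter or handling order cannot be told apart from late puberty.

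The late puberty libraries held 39448995 to 66796038 reads and the no disease libraries 22211333 to 80885350. The study's methods list an antibody to H3K27me3 beside the pan H3 antibody and describe pools, whereas the count columns are per animal. Reads per autosomal window were more numerous than per X or Y window in all 66 libraries with counts, with X at 0.373 to 0.579 and Y at 0.633 to 0.845 of the autosomal level. Among the animals outside the main comparison, M48 stood apart most. It had 37.2% of its reads in the top 5% of windows, when each library was thinned to 19000000 reads, against 14.8 to 15.3% in M34, M37 and M49, so results that use it are given with and without it. M28, a lean animal, was next with 18.4%, and both were left out where spread among other animals was computed.

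Late puberty sperm had more windows on the lower than on the higher side at small p, with the 3 largest differences on chromosome 3, but no window passed correction for the number of windows tested. Of 2782040 windows, 2449235 had a mean of at least 10 reads over the 22 animals and were tested. edgeR's quasi-likelihood test gave 67 windows lower in late puberty with p below 0.0001 (0.00274% of those tested) and 20 higher (0.000817%), 87 in all, where 245 would fall below that p if p-values were uniform. At p below 0.05 there were 85384 windows, 2.01% of those tested on the lower side and 1.48% on the higher side. No window had an adjusted p below 0.05 by edgeR's quasi-likelihood test, where the smallest adjusted p was 0.225. DESeq2 also gave 0 windows (86783 with p below 0.05 unadjusted), and so did edgeR's exact test (95877 with p below 0.05 unadjusted, smallest adjusted p 0.182). Everything below that p threshold is therefore a list of the most extreme windows and was not shown to differ beyond what this many tests produce.

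The 87 windows, each extended over directly adjacent windows with p below 0.1, made 74 DHRs on 19 of the 23 chromosomes. Histone retention was lower in late puberty at 54 DHRs and higher at 20. The lower DHRs differed by a log2 fold change of -0.78 to -3.30, with a median of -1.09, and the higher ones by 0.54 to 1.09, with a median of 0.85. This balance depends on the fit: edgeR's exact test gave 166 lower and 133 higher DHRs, no filter beyond 1 read gave 45 higher (55.4% lower), and leaving out 1 late puberty animal gave 49 to 79 lower and 11 to 30 higher, with 28 to 36 of the 74 DHRs found again. A single window made up 40 of them, and the longest, on chromosome 16, spanned 43000 bp. The windows on either side of the threshold had p-values of 9.98e-05 and 0.00010019, so the edge of the list is arbitrary. At 56 of the 74 DHRs all 5 late puberty animals lay beyond the nearer quartile of the no disease animals, as selection by p favours.

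Chromosome 3 held 14 DHRs, 18.9% of all, beside 6.64% of the tested windows, with 9 lower and 5 higher. Chromosome 19 held 7, which is 9.46% of the DHRs beside 2.32% of the windows, with 3 lower and 4 higher. Chromosome 7 held 8 DHRs, 10.8% beside 5.33% of the windows. Mitochondrial DNA held 0 DHRs, but 17 of its 17 tested windows were lower in late puberty. All had an unadjusted p below 0.05 by edgeR's quasi-likelihood test, beside 2.01% of all windows on the lower side. They lie on 1 molecule and are not separate observations, and the cause was not tested. Consecutive DHRs at most 1000000 bp apart were taken as a cluster, which gave 9 clusters holding 23 DHRs, 3 of the clusters on chromosome 3 and 1 on chromosome 19. With a gap of 500000 bp there were 7 clusters holding 18 DHRs, and with 5000000 bp 13 holding 35, in both cases 2 on chromosome 3 and 1 on chromosome 19. These counts move with the test and with single animals. With edgeR's exact test chromosome 3 held 26 of 299 DHRs and chromosome 19 held 13 of 299, smaller shares than here. Without M35 chromosome 3 held 9 DHRs, chromosome 19 held 4 and there were 4 clusters. Without M36 chromosome 3 also held 9, and chromosome 19 held 4, while without M50 chromosome 19 held 11 and without M51 it held 3.

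**Figure D1:**
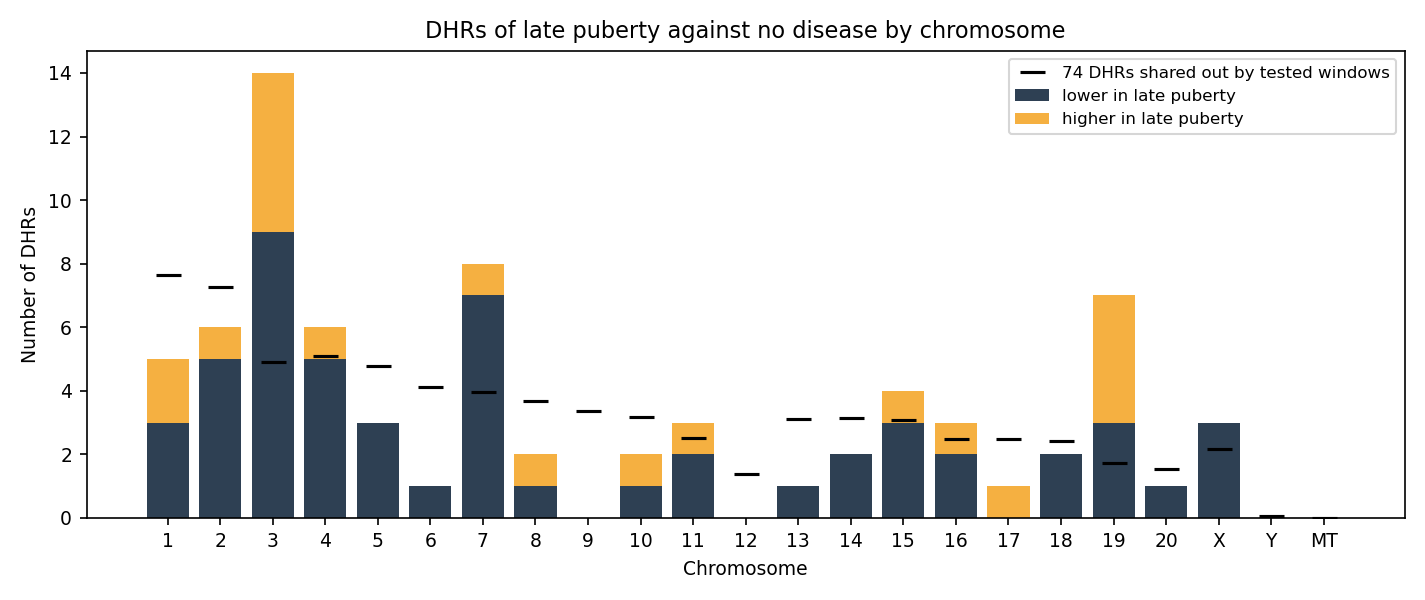
Number of late puberty DHRs per chromosome (vertical axis, count), stacked by direction in late puberty against no disease; dashes give the number each chromosome would hold if the 74 DHRs were shared out by tested windows. Chromosome 3, with 14 DHRs, chromosome 7, with 8, and chromosome 19, with 7, stand above their dashes.

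A group of 5 lower DHRs, among the 6 of largest log2 fold change in the list, lay between 87.3 and 90.0 Mb of chromosome 3, named 3j to 3n by their order on the chromosome. They lie at chr3:87324001-87330000 (3j), chr3:87808001-87810000 (3k), chr3:87811001-87813000 (3l), chr3:89249001-89252000 (3m) and chr3:90047001-90048000 (3n). The first 3 fall within 489000 bp and the last 2 within 799000 bp. Levels are given as reads per 1000000 (RPM) in the window of smallest p, the lead window of each DHR. In a sperm sample, fewer sperm with retained histone at a site and less histone per sperm cannot be told apart. No DNA sequenced without immunoprecipitation was used here. Differences between animals in DNA copies or read mapping therefore cannot be told apart from retention either, and were not tested.

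At 3k the late puberty animals M35, M36, M38, M50 and M51 had 0.151, 0.0183, 0.0148, 0 and 0 RPM. The no disease animals ranged from 0 to 0.529 RPM with a median of 0.261. Of the late puberty animals 4 thus sat at or near 0 and M35 above them, while the no disease animals covered the whole range, so the groups overlap. The means were 0.0368 ± 0.0644 RPM (SD, n = 5) and 0.268 ± 0.172 RPM (SD, n = 17), a fitted log2 fold change of -3.14 ± 0.55 (SE) with an adjusted p of 0.225 by edgeR's quasi-likelihood test.

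M35 was also the highest late puberty animal at the neighbouring sites, and the order of the other 4 rested on a few reads. At 3j the 5 late puberty animals, named in the same order, had 0.126, 0, 0.0148, 0.0467 and 0 RPM against a no disease range of 0 to 0.62 with a median of 0.276, a log2 fold change of -2.94 ± 0.56. At 3l they had 0.151, 0, 0, 0.0934 and 0 RPM against 0 to 0.72 with a median of 0.26, a log2 fold change of -2.56 ± 0.52. At both sites at least 1 no disease animal had 0 reads.

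At 3m the late puberty animals had 0.101, 0, 0, 0.0311 and 0 RPM and the no disease animals 0 to 0.481 with a median of 0.235, a log2 fold change of -3.30 ± 0.60. This DHR held 3 windows with p below 0.0001. At 3n the late puberty animals had 0.126, 0.0548, 0, 0.0467 and 0.0158 RPM and the no disease animals 0.0175 to 0.471 with a median of 0.242, a log2 fold change of -2.54 ± 0.46. Both had an adjusted p of 0.225 by edgeR's quasi-likelihood test, and M35 was again the highest of its group.

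These are low counts. The mean over the 22 animals was 10.3 to 12.1 reads at the 5 lead windows, close to the filter of 10, and a library with 0 reads allows up to 3 reads, which is 0.0444 to 0.0755 RPM in the late puberty libraries. With the filter raised to a mean of 20 reads none of the 5 sites was tested. The call also depends on the test. Of the 5 sites, 1 stayed among the DHRs with DESeq2, 1 with robust empirical Bayes in edgeR and 3 with edgeR's exact test. Without the 4 no disease animals tagged DMSO 3 stayed, since 3j and 3m were then not tested. Leaving out M35 moved it the other way: 7 windows, all in 3j, 3k, 3m and 3n, then had an adjusted p below 0.05 by edgeR's quasi-likelihood test, the smallest 0.00225. M35 was the highest late puberty animal at all 5 lead windows, so leaving it out removes the animal least like the others. Those adjusted p-values therefore do not show a difference for the late puberty group as labelled. The direction was lower in late puberty in every one of these fits that tested the sites. These fits reused the animals by which the sites were chosen, so the direction had little room to change.

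Low retention at 3j to 3n went together within animals and was not particular to late puberty. An animal was counted as low when all 5 lead windows were under 0.1 RPM, a level chosen after the values were seen. Of the late puberty animals 4 of 5 were low (M36, M38, M50 and M51), beside 2 of 17 no disease animals (M40 and M53). Among the 44 animals outside the comparison 3 were low: M21 with multiple disease without late puberty, M33 with testis disease, and M9 of the control lineage without disease. Counting animals under 0.1 RPM at 4 or more of the sites gave 5 of 44, adding M41 with testis disease and M42, a lean animal, and left late puberty at 4 and no disease at 2. Of all 66 animals with counts, 36 were at 0.1 RPM or above in each of the 5 windows.

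The other animals with late puberty were not low at these sites together. Of the 4 multiple disease animals, M34, M37, M48 and M49 had 0.259, 0.26, 0.0814 and 0.224 RPM at 3k, and of the control lineage animals M3 had 0.961 and M4 had 0.461 RPM. Low at all 5 sites were 0 of the 4 multiple disease animals and 0 of the 2 control lineage animals. M48 was under 0.1 RPM at 3 of the 5, but 3 reads are worth 0.244 RPM in that library, so the lead windows cannot place it. Summed over the 14 windows of these DHRs, M48 had 100 reads, 227% of the median of all animals. At 3m the 4 multiple disease animals had 0.158, 0.165, 0 and 0.224 RPM, and M3 and M4 had 0.455 and 0.504. M34, M37 and M49 were thus near the no disease median at 3k, and M3 and M4 above or near the upper end of its range.

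Against the 9 multiple disease animals without late puberty, the difference at 3k was -0.32 on the scale of log2(RPM + 0.05), with a two-sided exact permutation p of 0.445 (smallest possible 0.0028). Without M48 it was -0.03, with an exact permutation p of 0.909 (smallest possible 0.00909). In the control lineage the difference from the 9 animals without disease was 1.50 in the other direction, with an exact permutation p of 0.0364, which is the smallest that 2 against 9 animals allow.

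The fit over all windows was read at the same 5 sites. Among the multiple disease animals without M48 the log2 fold changes were -0.29 at 3j, -0.22 at 3k, -1.06 at 3l, -0.57 at 3m and -0.09 at 3n. All 5 were on the lower side, as were 50.9% of all windows, and 3l was past an unadjusted p of 0.05, as were 2.26% of all windows on the lower side. With M48 they were -0.33, -0.33, -1.10, -0.73 and 0.60, of which 4 were on the lower side. In the control lineage all 5 were on the higher side, at 0.97, 1.32, 0.92, 1.07 and 1.11, and 4 of them (3j, 3k, 3m and 3n) were past an unadjusted p of 0.05, where 1.75% of all windows were higher at that p and 51.7% were lower at any p. Their adjusted p-values by edgeR's quasi-likelihood test were 1.00. Over the 44 animals outside the comparison, log2 RPM at pairs of 3j, 3k, 3m and 3n had Pearson correlations of 0.563 to 0.834. The 5 sites are therefore not 5 separate observations in either comparison, and the control lineage values rest on M3 and M4 alone.

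A second group of chromosome 3 DHRs lay near 21 Mb and was higher in late puberty. The sites are chr3:20907001-20910000 (3b), chr3:21404001-21410000 (3c), chr3:21421001-21424000 (3d) and chr3:21437001-21441000 (3e), within 534000 bp. At 3e, the site of smallest p among them, M35, M36, M38, M50 and M51 had 1.33, 1.33, 1.17, 0.778 and 1.74 RPM, and the no disease animals 0.196 to 1.2 with a median of 0.656. Of the late puberty animals 3 exceeded every no disease animal, and the other 2 fell inside their range. The log2 fold change was 0.94 ± 0.18, with an adjusted p of 0.365 by edgeR's quasi-likelihood test.

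At 3b the late puberty animals had 0.73, 0.603, 0.325, 0.218 and 0.491 RPM against 0.0653 to 0.377 with a median of 0.207, a log2 fold change of 1.05 ± 0.25. At 3c they had 1.13, 1.02, 0.946, 0.887 and 0.681 RPM against 0.262 to 0.779, a log2 fold change of 0.72 ± 0.17. At 3d they had 1.03, 0.786, 0.976, 1.11 and 0.84 RPM against 0.215 to 0.942, a log2 fold change of 0.75 ± 0.18. At each of these sites at least 3 late puberty animals lay above all 17 no disease animals and at least 1 lay inside their range. Each of the 4 sites went above p of 0.0001 when some single late puberty animal was left out, 3e only without M51, where its log2 fold change was 0.80. The sites 3b, 3d and 3e were also above it with DESeq2 and with edgeR's exact test, 3e with robust empirical Bayes, and 3b and 3d against all 19 atrazine lineage animals without disease.

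The higher group near 21 Mb was next read in the other animals with late puberty. The multiple disease animals had 2 of the 4 sites on the higher side, both with M48 and without it. M34 and M37 had 0.634 and 0.827 RPM at 3e, M49 had 0.224 and M48 had 0.163, while M3 and M4 of the control lineage had 0.961 and 1.17. Both were inside the range of the control lineage animals without disease, 0.771 to 1.43 RPM. The control lineage also had 2 of 4 on the higher side. Over all windows, 48.5% were on the lower side with M48, 50.9% without it and 51.7% in the control lineage, so 2 of 4 is near the background. None of the 4 was past an unadjusted p of 0.05 in either comparison. Summed over the DHRs of the cluster, the late puberty animals stood at 121 to 151% of the median of all animals (median 143%) and the no disease animals at 53.4 to 132%. The control lineage animals without disease reached 147%, with a median of 128% and 7 of 9 above the median of all animals.

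The remaining chromosome 3 DHRs were scattered. At chr3:4042001-4043000 (3a), chr3:23972001-23977000 (3f), chr3:34915001-34916000 (3g) and chr3:50818001-50819000 (3h) late puberty was lower, with log2 fold changes of -1.04 ± 0.25, -1.15 ± 0.26, -1.08 ± 0.27 and -1.26 ± 0.26. Mean levels there were 0.181 to 0.205 RPM in late puberty and 0.424 to 0.453 RPM in no disease, and the groups overlapped at each. At chr3:73773001-73774000 (3i) late puberty was higher, at 0.594 ± 0.186 RPM (SD, n = 5) against 0.317 ± 0.0746 RPM (SD, n = 17), a log2 fold change of 0.90 ± 0.20. Here the lowest late puberty animal, at 0.436 RPM, was under the highest no disease animal, at 0.446 RPM. Each of these 5 sites went above p of 0.0001 without some single late puberty animal, and 3g also with DESeq2, with edgeR's exact test, under both other filters and without the animals tagged DMSO, and 3a also against all 19 animals without disease.

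On chromosome 19, 3 DHRs within 162000 bp were higher in late puberty: chr19:28019001-28021000 (19b), chr19:28156001-28171000 (19c) and chr19:28180001-28181000 (19d). Reads were more plentiful here than at 3j to 3n, with means of 15.6 to 132.9 reads over the 22 animals at these sites and 3b to 3e. At 19d M35, M36, M38, M50 and M51 had 0.73, 0.804, 0.562, 0.545 and 0.665 RPM, and the no disease animals 0.238 to 0.485 with a median of 0.371. The groups did not overlap at 19d, with a log2 fold change of 0.83 ± 0.19.

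At 19b the late puberty animals had 3.32, 2.83, 2.76, 2.86 and 3.77 RPM against 1.43 to 2.89 with a median of 2.23, a log2 fold change of 0.55 ± 0.12. At 19c they had 1.61, 1.43, 0.887, 1.4 and 1.57 RPM against 0.434 to 1.47 with a median of 0.764, a log2 fold change of 0.78 ± 0.16. M35 and M51 exceeded all no disease animals at both sites and the others fell among the upper no disease values, except M38 at 19c, which was closer to the no disease median. The p at 19c stayed below 0.0001 without any single late puberty animal, whereas 19b went above it without M35 and without M51, and 19d without M35, M36 or M51. With edgeR's exact test 19c was above it.

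In M34, M37 and M49 the level at 19d was 0.461, 0.661 and 0.858 RPM, so M37 was inside the late puberty range and M49 above it, and in M48 it was 0.0814. M3 and M4 had 0.455 and 0.403 RPM, inside the no disease range. Among the multiple disease animals 2 of the 3 sites were on the higher side without M48 and 1 of 3 with it, and in the control lineage 2 of 3 were, none past an unadjusted p of 0.05. Over all windows 50.9%, 48.5% and 51.7% were on the lower side in these comparisons. The log2 fold changes were -0.06 to 0.31 without M48, -0.20 to 0.06 with it and -0.46 to 0.09 in the control lineage. Summed over the 3 DHRs, late puberty stood at 93.9 to 119% of the median of all animals (median 116%) and no disease at 49.3 to 117% (median 87.2%). Among groups without late puberty, multiple disease without late puberty had a median of 110%, testis disease 109%, kidney disease 109% and control lineage no disease 104%, while the lean animals had 72.5%.

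**Figure D2:**
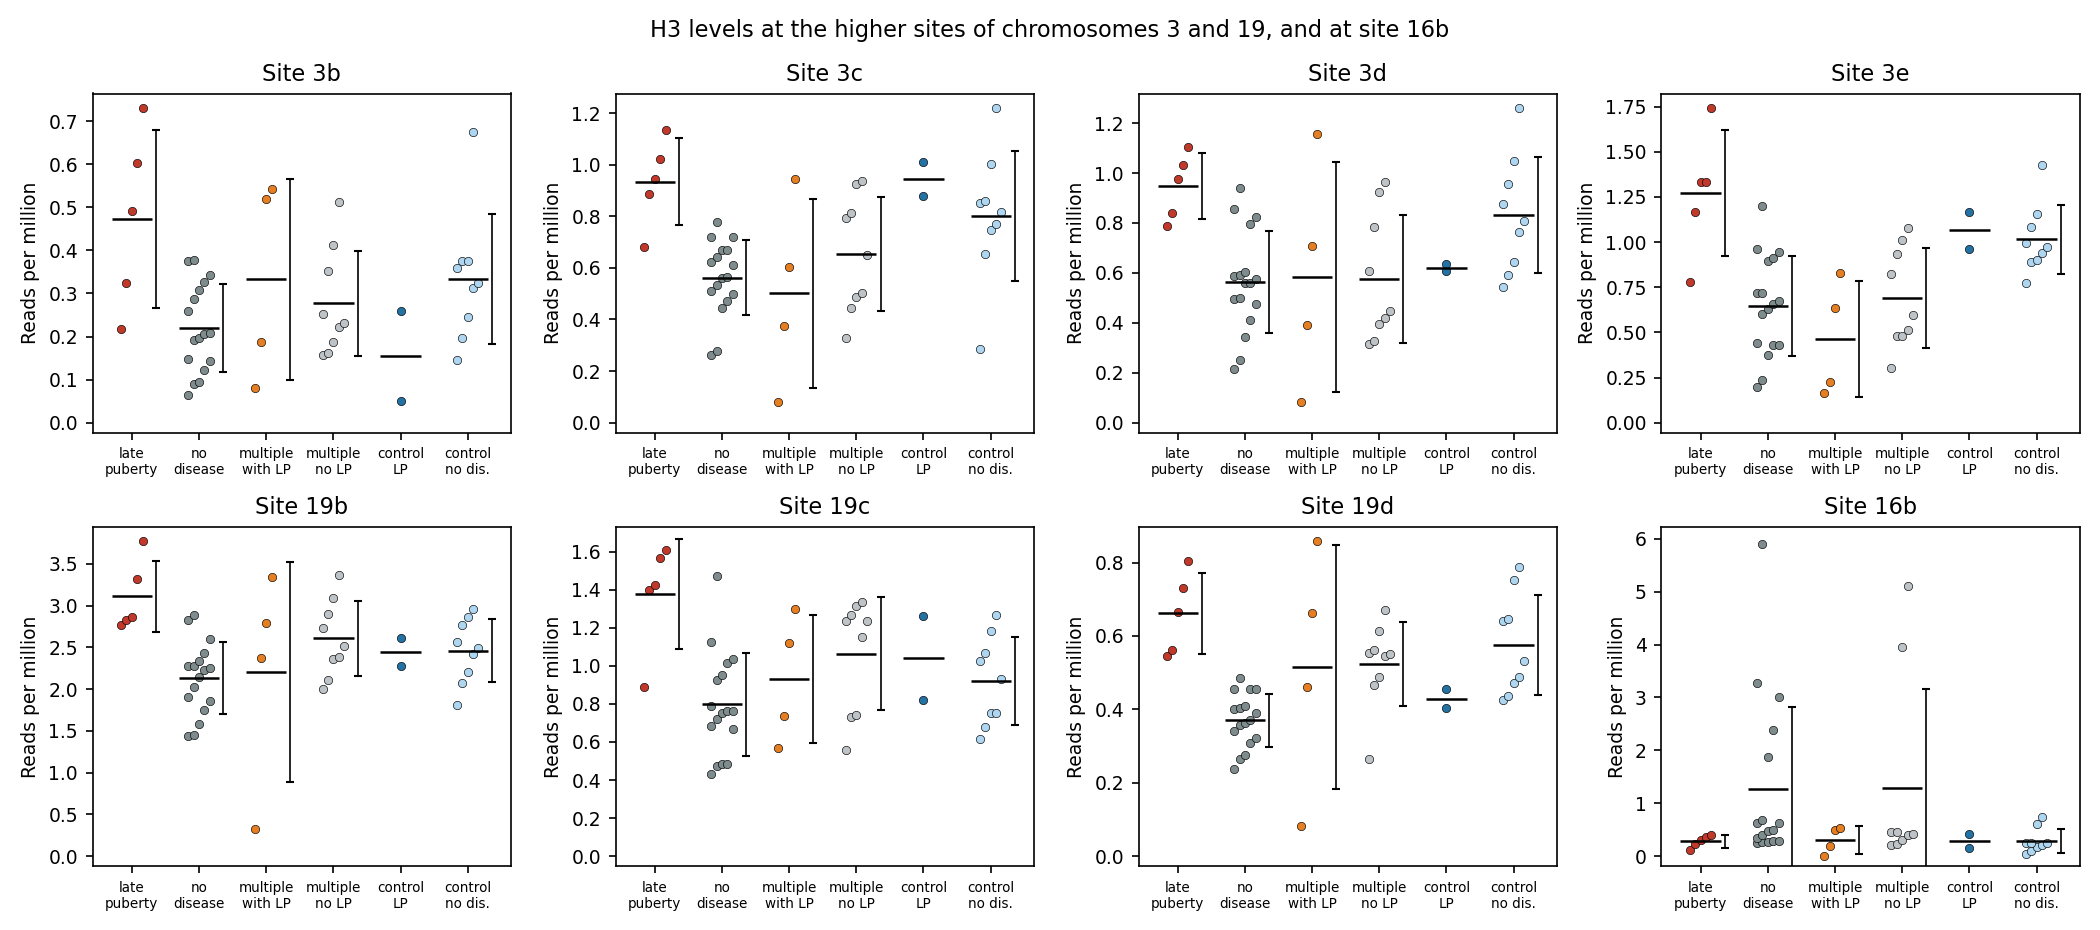
Histone retention (vertical axis, RPM in the lead window) at the higher DHRs 3b to 3e and 19b to 19d and at the lower DHR 16b in 6 groups; points are animals, bars the mean ± SD, and LP stands for late puberty. All 5 late puberty points at 19d lie above the highest no disease point, 0.485 RPM, and at 16b a few no disease points reach up to 5.9 RPM.

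The other 4 DHRs of chromosome 19 were single sites. At chr19:17267001-17268000 (19a), chr19:50418001-50420000 (19f) and chr19:58403001-58404000 (19g) late puberty was lower, with log2 fold changes of -1.14 ± 0.28, -1.32 ± 0.27 and -1.26 ± 0.28. At chr19:31897001-31898000 (19e) it was higher, at 0.573 ± 0.115 RPM (SD, n = 5) against 0.324 ± 0.0844 RPM (SD, n = 17), a log2 fold change of 0.86 ± 0.20. The groups overlapped at all 4 sites, and at 19f the no disease animals spread from 0.216 to 1.82 RPM. The p at 19f was above 0.0001 with DESeq2, edgeR's exact test and robust empirical Bayes, and at 19g with the exact test. At 19a, 19e and 19g it went above that without some single late puberty animal, and at 19a also without the animals tagged DMSO.

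Levels at the sites were also set beside those of their surroundings. At 3j the level per window over that in flanks of the same length had a median of 0.228 in late puberty (range 0.123 to 0.530) and 0.662 in no disease (0.147 to 1.02). At 3m it was 0.0421 against 0.941, with the late puberty animals between 0 and 1.16. The flanks of a DHR are windows that did not join it, so a ratio away from that of the no disease animals is partly set by how DHRs were drawn. At 19c the ratio was 2.14 against 1.93 and at 3e 1.24 against 0.950, and with flanks of 10000 bp the ratio at 19c was 2.23 against 2.25.

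Stretches of each cluster with 500000 bp on either side, a choice made after the values were seen, were counted next. Of the 936 tested windows at chr19:27519001-28681000, 17.3% were higher in late puberty with p below 0.05, beside 1.48% of all windows, and of the 1352 at chr3:20407001-21941000, 9.84% were. Of the 3352 at chr3:86824001-90548000, 2.42% were lower, beside 2.01% of all windows. The share, DHR windows included, was thus above that of all windows around the higher clusters and close to it around 3j to 3n. Without M48, the multiple disease comparison had 1.41% of the windows in the chromosome 19 stretch and 2.31% of those in the stretch around 3b to 3e higher with p below 0.05, and 1.75% of all windows. With M48 these shares were 8.31% and 2.03%, beside 7.51% of all windows. The control lineage had 0.634% and 2.86%, again beside 1.75%.

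**Figure D3:**
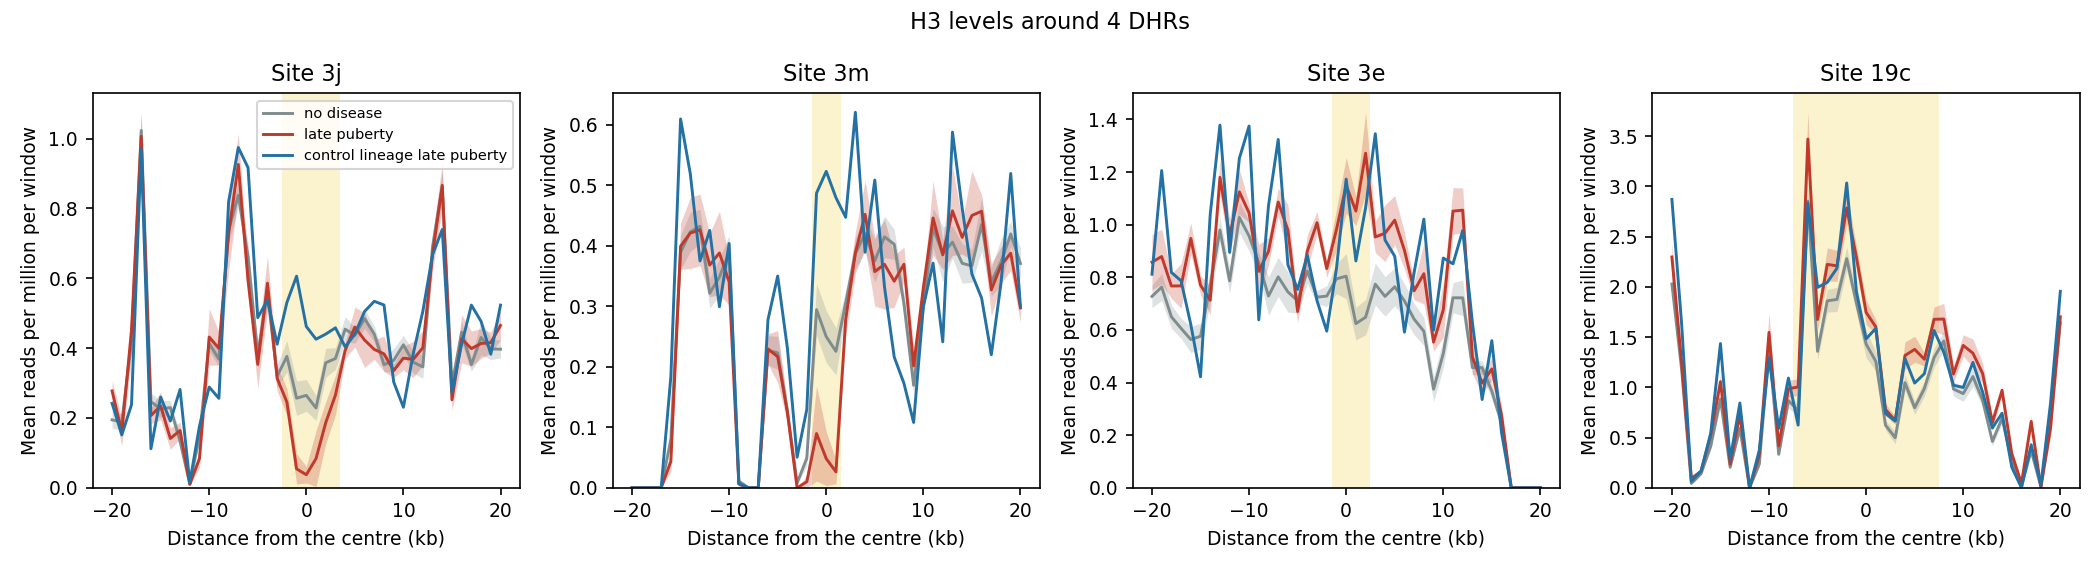
Mean histone retention (vertical axis, RPM per 1000 bp window) by distance from the DHR centre (horizontal axis, kb) at 3j, 3m, 3e and 19c; lines are the no disease animals, the late puberty animals and the control lineage animals with late puberty, with bands of ± SEM, and shading marks the DHR. The late puberty line dips at 3j and 3m, where its median ratios to the flanks were 0.228 and 0.0421.

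Outside these chromosomes, several lower DHRs, among them the longest, had a few no disease animals far above the rest. The longest DHR, chr16:64917001-64960000 (16b), had 5 windows with p below 0.0001, and M35, M36, M38, M50 and M51 had 0.227, 0.11, 0.355, 0.405 and 0.301 RPM in its lead window. The no disease animals ranged from 0.257 to 5.9 RPM with a median of 0.503, and the fitted log2 fold change was -2.09 ± 0.42, with an adjusted p of 0.870 by edgeR's quasi-likelihood test. At chr14:101988001-101995000 (14b), also with 5 such windows, the late puberty animals had 0.428, 0.457, 0.325, 0.42 and 0.57 RPM and the no disease animals 0.353 to 6.63 with a median of 0.618, a log2 fold change of -1.64 ± 0.36. The groups overlapped at both sites, and the late puberty values were close to the lower no disease values. Neither site kept a p below 0.0001 with DESeq2, edgeR's exact test or robust empirical Bayes.

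The same 5 no disease animals, M20, M24, M39, M40 and M62, were the highest at both sites. They were also the 5 highest of 17 at chr2:159010001-159012000 (2b), 14a, 16c and Xc. At 16b the fifth of them had 1.88 RPM and the sixth no disease animal 0.675, and at 14b these were 1.93 and 0.715. The other 12 no disease animals had 0.257 to 0.675 RPM at 16b, so M35 and M36 were below all of them and M38, M50 and M51 within their range. Windows with this order were few genome-wide: in 557 of 2449235 (0.0227%) the 5 lay above the other 12, and in 75 by more than 1.5 times, of which 15 had p below 0.0001 in the late puberty comparison. The 75 lay on 10 chromosomes, 29 of them near 64 Mb of chromosome 16 and 17 near 77 Mb of chromosome 5.

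The high state was also found in some other disease groups. Over 1 RPM at both 14b and 16b were 0 of 5 late puberty, 5 of 17 no disease, 0 of 4 multiple disease with late puberty, 2 of 9 multiple disease without late puberty, 1 of 5 lean, 3 of 4 testis disease, 0 of 3 kidney disease and 0 of 9 control lineage no disease animals. Of all 44 animals outside the comparison 8 were, 1 of them among 16 of the control lineage. Outside the listed groups, M17 of the control lineage, with kidney disease and lean, stood at 318% of the median of all animals over 14a and 14b. Over 16b and 16c it stood at 214%. M19, with multiple disease not specified, stood at 300% and 265%. At 2b, 14a, 14b, 16b, 16c and Xc the log2 fold change among the multiple disease animals without M48 was -2.10 to -1.18, on the lower side at 6 of 6 and past an unadjusted p of 0.05 at 6 of 6, and with M48 at 6 of 6 and 2 of 6. Over all windows, 50.9% were lower and 2.26% lower past that p without M48, and 48.5% and 1.60% with it. In the control lineage 1 of the 5 sites tested was on the lower side, and none was past that p, beside 51.7% and 2.54% of all windows. In the main comparison the same 5 no disease animals were high at all 6 sites, so the sites are not 6 separate observations. The multiple disease comparison held none of these animals. Its reference held M26 and M27, at 542% and 408% of the median of all animals over 14a and 14b. Over 16b and 16c they were at 487% and 366%. Medians of the animals with late puberty, without M48, and of the reference were 103% and 110% over 14a and 14b. Over 16b and 16c these medians were 108% and 104%.

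The other single DHRs named by size of p were 1a on chr1:9841001-9842000, where late puberty was lower at 0.342 ± 0.106 RPM against 0.643 ± 0.153 RPM, and Xa on chrX:50366001-50368000, lower at 0.0714 ± 0.0243 RPM against 0.238 ± 0.0792 RPM. Their log2 fold changes were -0.94 ± 0.21 and -1.66 ± 0.36. On the higher side were 15d on chr15:105846001-105848000, with a log2 fold change of 1.09 ± 0.24, 8b on chr8:68222001-68223000, with 0.97 ± 0.22, and 17a, 7g and 2a, with 0.94, 0.92 and 0.85. The p at 15d was above 0.0001 with DESeq2, edgeR's exact test and robust empirical Bayes, at 7g without the animals tagged DMSO, at 17a against all 19 animals without disease, and at each of these 7 sites without some single late puberty animal. Of all 74 DHRs, 7 had late puberty and no disease animals that did not overlap: 2f, 5a, 7f, 11c and 15a, all lower, and 11a and 19d, both higher. Over all tested windows 0.00241% had every late puberty animal below every no disease animal and 0.00216% had them above, and the rule that chose the DHRs used the same contrast.

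The direction at the lead windows was then read in the animals that the list had not used. Among the multiple disease animals, 71 of the 74 lead windows were tested, and 35 had the direction seen in late puberty: 25 of 51 lower sites and 10 of 20 higher sites, where 48.5% of all 2381256 windows were on the lower side. At p below 0.05, 4 sites had the same direction and 6 the opposite one, beside 1.60% of all windows lower and 7.51% higher. M48 set much of this. Without it, 50 of 71 had the same direction, 37 of 51 lower and 13 of 20 higher, beside 50.9% of windows on the lower side. At p below 0.05, 11 then had the same direction (2b, 2c, 3l, 7d, 14a, 14b, 16b, 16c, 18a, 19f and Xc, all lower) and 3 the opposite one (3g, 3h and 19a), beside 2.26% of all 2422756 windows lower and 1.75% higher.

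Of those 11, 6 were the sites at which the same few no disease animals were high. Outside these 6, 44 of 65 sites had the same direction without M48, with 5 past p below 0.05 in the same direction and 3 in the opposite one. With M48 these were 29 of 65, 2 and 6, and in the control lineage 30 of 67, 2 and 4. Over all windows 50.9%, 48.5% and 51.7% were on the lower side in these comparisons. At 2c and 19f, which are among the 5, 4 of the 5 no disease animals high at 16b were again among the 5 highest. No window had an adjusted p below 0.05 by edgeR's quasi-likelihood test, either with all 4 animals (216961 windows with p below 0.05 unadjusted) or without M48 (97190). With M48 kept and M34, M37 or M49 left out, 41347, 39267 and 43427 windows had an adjusted p below 0.05, so that count depended on which single animal was left out.

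In the control lineage, 72 lead windows were tested and 31 had the direction seen in late puberty, 22 of 52 lower sites and 9 of 20 higher sites, where 51.7% of all 2497289 windows were on the lower side. At p below 0.05, 2 sites (3a lower and 15d higher) had the same direction and 4 the opposite one, beside 2.54% of all windows lower and 1.75% higher. The opposite ones were 3j, 3k, 3m and 3n, which went together within animals and are not 4 separate observations. Over all windows, 8 had an adjusted p below 0.05 by edgeR's quasi-likelihood test in this comparison.

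**Figure D4:**
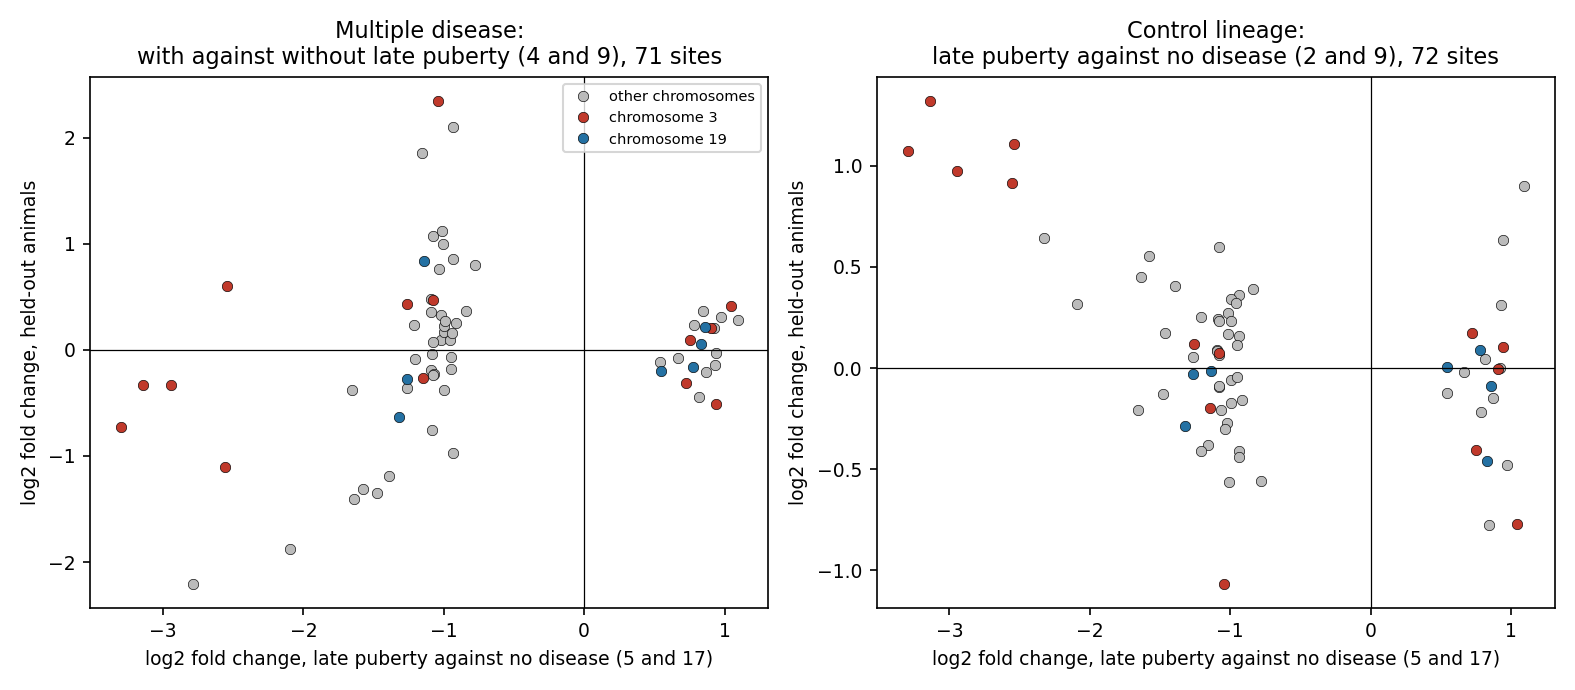
Log2 fold change at each DHR lead window in late puberty against no disease (horizontal axis) beside that in animals the list did not use (vertical axis): multiple disease with against without late puberty, 71 sites, and control lineage late puberty against no disease, 72 sites. The 3j to 3n points, at log2 fold changes of -2.54 to -3.30 on the horizontal axis, run from -1.10 to 0.60 in the multiple disease animals and lie above 0 in the control lineage.

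Several of the sites varied widely among animals that were not part of the comparison. In 42 other animals (all but M28 and M48), the coefficient of variation beyond counting error had a median of 22% over all tested windows, with a 95th percentile of 33.6%. The median over the 74 DHRs was 26.3%, and 23 of them were above that percentile. At 3j to 3n it was 59.1%, with 5 of 5 above it, at 3b to 3e 31.8%, with 1 of 4 above it, and at 19b to 19d 20.5%, with 0 of 3 above it. The sites 3j to 3n thus lay at windows that varied widely among these other animals, and 19b to 19d at windows of ordinary spread. Median levels in these 42 animals were 0.2608 RPM at 3j to 3n, 0.6785 at 3b to 3e and 0.9975 at 19b to 19d. Over all tested windows the median was 0.3816 RPM, so 3j to 3n lay below the ordinary level and the higher clusters above it.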

How the data were processed

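The authors trimmed paired-end reads with Trimmomatic, aligned them to Rnor_6.0 with Bowtie2 and deposited read counts per 1000 bp window for each animal. The submitters' processing notes also list FastQC, SAMtools and edgeR, without versions. The counts of the late puberty, multiple disease and exposure tables were used for 66 animals. The 143 other columns (RPKM values and the authors' own fold changes and p-values) were not used. One animal, M1, had no counts.

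Windows averaging 10 reads or more were tested with edgeR 4.0.16 (R 4.3.3, limma 3.58.1), by glmQLFit and glmQLFTest with TMM factors and a dispersion trend from a seeded sample of 200000 windows, and Benjamini-Hochberg adjustment over all windows tested. The standard error is the size of the log2 fold change over the square root of F. A DHR is a window with p below 0.0001 extended over directly adjacent windows with p below 0.1. The RPM is the count per 1000000 reads after TMM scaling. The fit was first tested on simulated data. DESeq2 1.42.0 and edgeR's exact test were alternatives. Pairs of libraries among the 22 differed by more than sampling noise, so none was counted as a duplicate. P-values measure the spread between animals and do not account for shared litters, which the labels do not give.

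Sites named are those on chromosomes 3 and 19, the 5 lower and 5 higher of smallest p elsewhere, those with at least 3 windows of p below 0.0001 and the longest. The sites 2b, 14a and Xc, and the sites outside chromosome 19 whose groups do not overlap, were named after their values were seen. The members, lists and stretches were chosen with earlier results of these data known. No Rnor_6.0 sequence or annotation was used here, so no genes or sequences are given. Floors cover counting error only, whereas the SD, SEM and SE given with ± include the spread between animals.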

Additional observations from a re-analysis of the deposited data

Results flagged for a closer look

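Of 66 sets of 4 or 5 animals looked at, 7 had 1 animal far from the others (a gap over Dixon's 95% critical value, which chance gives in about 1 in 20 sets). Of these, 5 were M48 among the multiple disease animals with late puberty: 37.18% of its reads in the top 5% of windows, and 3.337 RPM at 1a, 6.512 RPM at 3a, 1.628 RPM at 3n and 1.058 RPM at 19a, where the next animals had 0.504, 0.354, 0.36 and 0.591 RPM. M37 had 0.189 RPM at 19e, below the next value of 0.488. In late puberty M35 had 0.151 RPM at 3k, beside 0.018 in the next animal.

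At 12 of 31 named sites, every animal of a second late puberty group lay on the other side of its reference median from the side seen in the main comparison. These differences between groups were not tested as such. All but 19a came from the control lineage, where only 2 animals had to fall on the same side of a median. The share of all windows that meet this rule was not computed, so the count cannot be read against it. The sites include 3j to 3n, which went together within animals. In the control lineage the late puberty median was lower than the reference at 3b (0.155 RPM against 0.325), 3d (0.62 against 0.807), 3i (0.379 against 0.431), 8b (0.271 against 0.341) and 19d (0.429 against 0.533). It was higher at 3j (0.462 against 0.145), 3k (0.711 against 0.264), 3l (0.48 against 0.246), 3m (0.48 against 0.203), 3n (0.527 against 0.115) and 14b (0.462 against 0.306). Among the multiple disease animals it was higher at 19a, at 0.547 RPM against 0.35.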

How the results depend on the processing

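No paired analysis was possible because no animal or number was shared between the groups. The direction at the lead windows was kept in every alternative that tested them, 74 of 74 in most. The windows were chosen by p in this contrast and the alternatives reused its animals. A kept direction is therefore largely set by that choice and is not independent evidence. With no filter beyond 1 read there were 142 windows with p below 0.0001, 2 with adjusted p below 0.05, 45 higher DHRs and 55.4% lower DHRs. With a mean of at least 20 reads chromosome 3 held 7 DHRs. DESeq2 gave 32 higher DHRs. The edgeR exact test gave 300 windows and 299 DHRs, 166 lower and 133 higher (55.5% lower), 26 on chromosome 3, 13 on chromosome 19 and 30 clusters. Without the animals tagged DMSO there were 132 windows, 117 DHRs and 37 higher DHRs. With a seed p below 1e-05 there were 12 DHRs, 9 lower and 3 higher, 7 on chromosome 3, 2 on chromosome 19 and 3 clusters. The cause was not tested.

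Leaving out 1 late puberty animal gave 68 to 112 windows, 0 to 7 with adjusted p below 0.05, 65 to 109 DHRs, 49 to 79 lower, 11 to 30 higher, 72.5 to 83.3% lower, 9 to 14 on chromosome 3, 3 to 11 on chromosome 19 and 4 to 11 clusters, and 28 to 36 of the 74 DHRs were found again. Among the multiple disease animals 31 to 50 sites kept the direction and in the control lineage 32 to 33. The fold change among multiple disease animals turned at 3n without M48 (-0.092) and at 3j without M49 (0.081), with ranges over the animals left out of -0.644 to 0.081 at 3j and -0.092 to 0.977 at 3n. With flanks of 10000 bp the median ratio of the late puberty animals at 3k was 0.419. Bridging 1 skipped window, added after seeing the data, gave 73 DHRs. Low counts limit 3j to 3n, at a mean of 10.3 to 12.1 reads.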
